A study of Mus musculus with 6 samples.

Results

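Cycling myoblasts are the dividing progeny of muscle stem cells. They were picked out here from single-cell RNA profiles of mouse quadriceps that had been injured with cardiotoxin, a snake venom toxin that kills muscle fibres. A barcode, the tag that marks the RNA of 1 droplet, was kept when it held at least 500 genes and at most 15% of its unique molecular identifiers (UMIs, each standing for 1 captured transcript) from mitochondrial genes. A kept barcode counted as myogenic when it held at least 2 of Cdh15, Chrna1, Des, Myod1, Fgfr4 and Myf5, with Cdh15 or Myod1 among them, when Ptprc and Pecam1 were at 0 and when 6 collagen-matrix genes made up under 2% of its UMIs. A myogenic barcode counted as cycling when it also held at least 3 of Top2a, Mki67, Birc5 and Ube2c. This gave 278 cycling myoblasts among 2181 myogenic barcodes, 42942 kept barcodes and 60282 deposited barcodes.

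All 6 mice carried Cdh5-CreERT2:R26R-tdTomato, a reporter that labels cells with an active Cdh5 promoter, which is that of endothelial cells, after Cre activation. Group CLL (3 mice) received clodronate liposomes, which deplete phagocytic cells, and group SHAM (3 mice) received liposomes without the drug. The first liposome dose came 1 day ahead of the injury and the second 2 days behind it, and the quadriceps was taken on day 5. The sources used here give no age, sex or dose, each library came from its own mouse, and no uninjured muscle was analysed here.

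After muscle injury, quiescent satellite cells marked by Pax7 enter the cell cycle, express Myod1 and divide as myoblasts. They then leave the cycle: myogenin (Myog) drives terminal differentiation, cyclin-dependent kinase inhibitors such as p57 (Cdkn1c) and p21 (Cdkn1a) close the cycle, and Mymk and Mymx let cells fuse into fibres. Macrophages are known as sources of signals for both steps.

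The libraries were uneven, and the fits of genes in cycling myoblasts, the class differences and the main shares were also computed without each library in turn. CLL 1, 2 and 3 held 60, 16 and 93 cycling myoblasts, and SHAM 1, 2 and 3 held 96, 7 and 6. Their UMIs summed to 2272318, 421652 and 3124826 in the CLL libraries and to 946753, 198174 and 210544 in the SHAM libraries, out of 23873416 to 94841003 UMIs in a whole library. SHAM 1 stood apart: its cycling myoblasts had a median of 8463 UMIs against 23744 to 41401.5 elsewhere, and a summed macrophage and monocyte marker level of 2696 CPM (counts scaled to a common library total) against 4.3 to 226 CPM in the other 5 libraries. Within SHAM 1, 66 of 96 cycling myoblasts held UMIs of at least 2 of 6 macrophage genes, against 20 of 60, 0 of 16, 32 of 93, 1 of 7 and 4 of 6 in CLL 1, 2, 3, SHAM 2 and 3. CLL 2 stood apart by adipocyte-linked transcripts, for example Adipoq at 436 CPM against 0 to 41.2 CPM elsewhere. No barcode of a cycling myoblast occurred in more than 1 library, while 180 kept barcodes did.

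Muscle and cycle markers that the selection did not use were found in every library. The 12 muscle markers outside the rule, such as Pax7, Itga7 and Peg3, summed to between 1327 and 1876 CPM, and at most 1 of them was at 0 in a library. The 12 cycle markers outside the rule, such as Cdk1, Ccna2 and Cenpf, summed to between 1495 and 5049 CPM and none was at 0. T and NK cell markers summed to at most 5.68 CPM, and erythroid markers to at most 8.87 CPM. Mural markers summed to between 68.2 and 391 CPM, tenocyte markers to between 49.5 and 301 CPM, Schwann cell markers to between 11.1 and 237 CPM and myofibre markers to between 73.8 and 829 CPM. Neutrophil markers were at 479 CPM in SHAM 1 and at 24.8 to 85 CPM in the other 5 libraries. Fibroblast markers, which include the collagens limited by the rule, summed to between 2465 and 7198 CPM. Endothelial markers were at 9.35, 6.44 and 7.98 CPM in the CLL libraries and at 96.6, 56.8 and 39.6 CPM in the SHAM libraries, with no overlap (p = 0.1, two-sided exact permutation test, the smallest that 3 against 3 allows). Between 1 and 8 of these 10 markers were at 0 in a library, as were 1 to 10 of the 12 macrophage and monocyte markers, and the part of such RNA in the results was not tested beyond the values given with them. These counts include Pecam1 and Ptprc, which the rule holds at 0. The tdTomato reporter transcript was found in cycling myoblasts at 71.6, 53.7 and 80.1 CPM in the CLL libraries and at 101, 85.2 and 49.5 CPM in the SHAM libraries, and its groups overlapped.

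The edges of the rule were as follows. Of the 278 cycling myoblasts, 187 held all 4 cycle genes and 91 held 3, while 134 myogenic barcodes with 2 cycle genes and 378 with 1 fell outside. The median depth was 23432 UMIs with all 4 genes, 13875 with 3 and 9732.5 with 2, so passing the rule went with depth. Cdh15, the muscle cadherin, was found without Myod1 in 138 cycling myoblasts, Myod1 without Cdh15 in 19, and both in 121. Collagen-matrix genes were between 1.5 and 2% of UMIs in 27 cycling myoblasts and between 2 and 2.5% in 20 excluded barcodes. A further 69 barcodes were excluded only for a Ptprc UMI and 40 only for a Pecam1 UMI.

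How common dividing myoblasts were depended on how the depth was handled. Among kept barcodes, cycling myoblasts made up 1.69, 0.201 and 1.66% in CLL 1, 2 and 3 and 0.425, 0.412 and 0.389% in SHAM 1, 2 and 3. The means were 1.18% ± 0.852 and 0.409% ± 0.0184 (SD, n = 3 each; p = 0.4, two-sided exact permutation test), with CLL 2 below and the other CLL libraries above all SHAM libraries. Among myogenic barcodes at their full depth, 21.3, 11.4 and 21% were cycling in the CLL libraries and 8.54, 5.88 and 8.11% in the SHAM libraries, which did not overlap (17.9% ± 5.62 against 7.51% ± 1.43; p = 0.1, the smallest that this exact permutation test allows). Their median depth was 19558.5, 6672.5 and 15857.5 UMIs in CLL 1, 2 and 3 and 4608.5, 18565 and 20358 in SHAM 1, 2 and 3. SHAM 2 and SHAM 3 were thus deeper than CLL 2 and CLL 3 but had lower shares. The part of depth in this gap was not tested. With every barcode drawn down to 2000 UMIs, leaving out shallower ones, the share was 2.49% (7 of 281), 4.03% (5 of 124) and 3.46% (15 of 434) in the CLL libraries and 3.86% (40 of 1036), 0% (0 of 117, which allows up to 2.56%) and 5.56% (4 of 72) in the SHAM libraries. At this equal depth the groups overlapped (3.33% ± 0.779 against 3.14% ± 2.85, n = 3 each; p = 0.9, exact permutation test). The exact binomial 95% intervals, which cover counting error only, ran from 1.53 to 13.6% in SHAM 3 and from 1.95 to 5.64% in CLL 3, so a severalfold difference between these mice would not have been detectable.

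Fibroblasts and macrophages of the same libraries gave a yardstick for division in general. Drawn to 2000 UMIs, the cycling share was 2.41% ± 0.372 in CLL and 1.23% ± 0.842 in SHAM fibroblast barcodes, with no overlap (n = 3 each; p = 0.1, exact permutation test). In macrophage barcodes it was 2.23% ± 0.0854 and 1.53% ± 0.671 (p = 0.2, exact permutation test). The myogenic share minus the fibroblast share was 0.915 percentage points ± 1.14 in CLL and 1.91 ± 2.1 in SHAM (p = 0.4, exact permutation test). Both depended on depth. At 4000 UMIs the fibroblast shares overlapped (p = 0.2, exact permutation test) and the myogenic minus fibroblast difference was 2.44 ± 1.7 in CLL and 2.23 ± 1.91 in SHAM (p = 0.9, exact permutation test). At full depth it was 9.88 ± 2.45 against 4.48 ± 1.12, with no overlap (p = 0.1, exact permutation test).

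**Figure D1:**
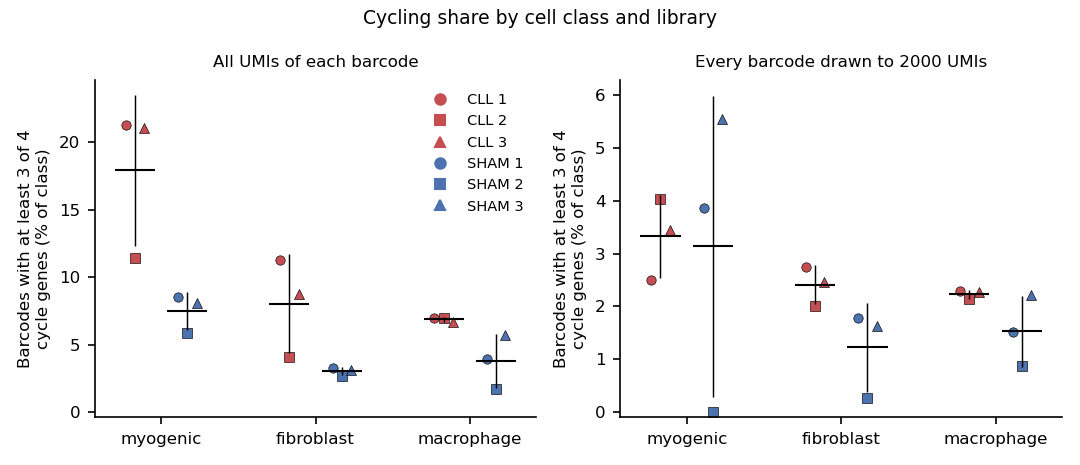
Share of barcodes with at least 3 of the 4 cycle genes, in percent of each cell class, at full depth and after drawing every barcode down to 2000 UMIs; each point is 1 library. At full depth the myogenic points of CLL (11.4 to 21.3%) lie above those of SHAM (5.88 to 8.54%), and at 2000 UMIs they overlap.

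What dividing myoblasts expressed was described next against the 1391 non-cycling myogenic barcodes of the same libraries, which passed the same rule but held none of the 4 cycle genes. These classes were cut by the cycle genes, so their differences are given as values with no test, as the mean over 6 libraries of log2 ratios of CPM with 5 CPM added to each. Replication genes were higher in cycling myoblasts: the 31 genes of the S phase list at 20 CPM or more had a median log2 ratio of 1.86, and all 31 were higher in each library. The clamp protein gene Pcna had a log2 ratio of 2.11, the helicase gene Mcm5 2.08 and the ribonucleotide reductase gene Rrm2 2.87. Mitosis genes had a median log2 ratio of 3.01 over 38 genes, of which 36 were higher in each library. Among them Cdk1, the kinase that starts mitosis, had a log2 ratio of 3.8, its partner cyclin A (Ccna2) 3.84 and the kinetochore gene Cenpf 4.34. The median over all 5865 genes at that level was 0.03.

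Differentiation genes lay on the other side. The 27 genes of differentiation, fusion and the sarcomere at 20 CPM or more had a median log2 ratio of -1.75, and 18 of them were lower in cycling myoblasts in each library. Myog was lower in each library, with a mean of 201 CPM in cycling and 561 CPM in non-cycling myoblasts and a log2 ratio of -2.04. The fusion genes Mymk and Mymx had log2 ratios of -2.1 and -1.75, skeletal actin (Acta1) -3.64, embryonic myosin (Myh3) -1.96 and muscle creatine kinase (Ckm) -2.31. Stem cell genes differed less, with a median log2 ratio of -0.29 over 19 genes: Pax7 was at -0.29, the integrin gene Itga7 at -0.01, and Chodl, a satellite cell surface gene, at -1.5.

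Cell cycle inhibitors were not absent from dividing cells. Cdkn1c stood at a mean of 1188 CPM in cycling myoblasts, between 670.1 and 1982 CPM, against 2626 CPM in non-cycling ones, and was lower in each of the 6 libraries (log2 ratio -1.15). Cdkn1a was at 128 CPM against 148 CPM and was higher in 2 of 6 libraries (log2 ratio -0.22). The 828 cycling fibroblast barcodes numbered 196, 219 and 236 in CLL 1, 2 and 3 and 151, 11 and 15 in SHAM 1, 2 and 3. Against them, Cdkn1c was 2.41 and Cdkn1a 2.56 higher on the log2 scale in cycling myoblasts, in 6 of 6 libraries each. Cyclin D2 (Ccnd2), which drives the G1 phase, was lower than in cycling fibroblasts in every library (log2 ratio -2.58). Genes of oxidative phosphorylation were higher than in cycling fibroblasts in each library for 26 of 30 genes, with a median log2 ratio of 0.54 against -0.07 over all 6406 genes at that level.

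**Figure D2:**
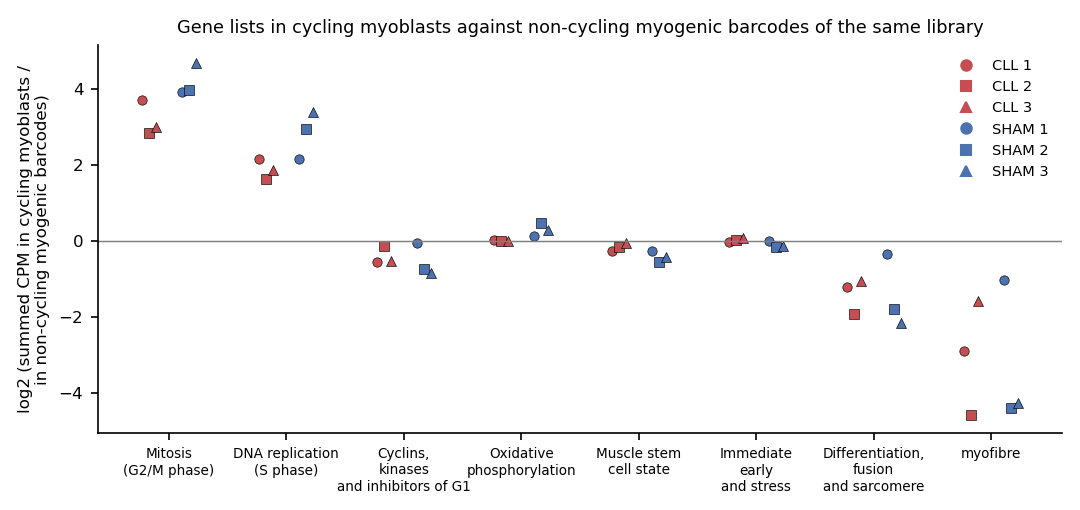
Log2 ratio of the summed CPM of 8 gene lists in cycling myoblasts over non-cycling myogenic barcodes; each point is 1 library and the line at 0 marks equal levels. Mitosis (2.85 to 4.69) and S phase lists (1.65 to 3.41) lie above 0 and the differentiation (-2.14 to -0.34) and myofibre lists (-4.58 to -1.04) below 0 in all 6 libraries.

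Pax7 and Myog were each found in some of the cycling myoblasts. In cells drawn to 2000 UMIs, a Myog UMI was found in 8.33, 13.3 and 22.6% of cycling myoblasts in CLL 1, 2 and 3 and in 19.8, 28.6 and 0% in SHAM 1, 2 and 3. The 0% rests on 0 of 6 cells, which allows up to 50%. Macrophage barcodes, which should lack Myog, gave 0.143 to 2.19% at the same depth. The means of 14.7% ± 7.23 and 16.1% ± 14.6 (n = 3 each) did not differ detectably (p = 1, two-sided exact permutation test), and the difference changed its sign at other depths. A Pax7 UMI was found in 16.7, 20 and 9.68% of cycling myoblasts in the CLL libraries and in 19.8, 0 and 16.7% in the SHAM libraries, against 0 to 1.49% of macrophage barcodes (15.4% ± 5.27 against 12.2% ± 10.6, n = 3 each; p = 0.7, exact permutation test). SHAM 2 has only 7 cycling myoblasts, so its 0 allows up to 42.9%. Drawn to 4000 UMIs, the Pax7 share was 22.9% ± 7.39 in CLL and 36.8% ± 5.29 in SHAM, in the other direction and with no overlap (p = 0.1, the smallest that this exact permutation test allows). The nearest values were 33.3% in SHAM 3 (2 of 6 cells) and 30.8% in CLL 2 (4 of 13), and SHAM 2 had 3 of 7. At full depth, Pax7 and Myog UMIs stood together in 18.3, 25 and 38.7% of cycling myoblasts in the CLL libraries and in 13.5, 14.3 and 16.7% in the SHAM libraries. The SHAM 2 and SHAM 3 values are 1 of 7 and 1 of 6 cells. Drawn to 2000 UMIs, these shares were 1.67, 0 and 1.08% in the CLL libraries and 4.17, 0 and 0% in the SHAM libraries. At 4000 UMIs they were 0, 7.69 and 4.3% against 4.55, 0 and 0%, so the groups overlapped at both equal depths.

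In 5 of 6 libraries, cycling myoblasts with a Myog UMI had higher levels of Cdkn1c and troponin T2 than the rest. These cells numbered 17, 5 and 48 in the CLL libraries and 25, 2 and 1 in the SHAM libraries, and in 6 of 6 libraries their median depth exceeded that of the rest. The levels here are CPM of each subset's own UMI total, without the TMM scaling used elsewhere. Cdkn1c was at 2270, 2657 and 2582 CPM with Myog and at 635, 549.6 and 945 CPM without it in CLL 1, 2 and 3. In SHAM 1 it was at 3086 with Myog and 685 without it, and in SHAM 2 at 1138 and 346 CPM. SHAM 3, with 1 Myog cell, had the other order, at 450.4 CPM with Myog and 916 CPM without it. Mymx, the small membrane protein of fusion, was at 99.1, 23.3 and 158 CPM with Myog in the CLL libraries and 208, 96.2 and 17.3 CPM in SHAM 1, 2 and 3, against 0 to 7.72 CPM without it. Troponin T2 (Tnnt2) was at 342, 349.6, 551 and 802 CPM with Myog in CLL 1, 2, 3 and SHAM 1, and at 114, 133, 119 and 136 CPM without it. It was at 176 against 7.36 CPM in SHAM 2, and in SHAM 3 at 0 with Myog and 19.6 CPM without it. These splits use a gene of the cells themselves and are descriptions.

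The treatment comparison asked which genes of dividing myoblasts differed between muscle with and without clodronate. UMIs were summed per library over the cycling myoblasts and 6693 genes were tested between the 3 CLL and 3 SHAM libraries. A single gene, Zfp36, passed an adjusted p of 0.05 (0.0149% of genes tested). At an unadjusted p under 0.05, 846 genes differed (12.6%), of which 322 were higher in CLL (4.81%) and 524 lower (7.83%), and counts of list members below are to be read against these shares. Most genes named below were chosen by small p, so a lack of overlap between groups goes with that choice. Of 83 named genes, 52 did not overlap, and the share over all genes was not computed. Genes entered the test only with enough counts in at least 3 libraries, so a gene low in a group could enter through the other. The median log2 fold change over all genes was -0.04. On simulated counts the same comparison recovered 21.26% of genes changed 2-fold and 97.11% of those changed 4-fold. The simulation gave all genes 1 common spread and all libraries 1 expression profile, so it held no outlying library such as SHAM 1. These rates can therefore be too high for the real counts. SHAM 1 weighed on this count: without it 196 of 5431 genes passed, 70 higher (1.29%) and 126 lower (2.32%), while without any single other library 0 to 2 passed. Wherever SHAM 1 is left out, here and below, the SHAM side rests on the 7 and 6 cells of SHAM 2 and SHAM 3.

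The immediate early genes, which are switched on within minutes by growth factors, cytokines and stress, held the gene that passed. Zfp36 encodes tristetraprolin, a protein that binds AU-rich elements and speeds decay of cytokine messages. The 250 bases before its RefSeq start site are shown because they hold a CArG box, the site of serum response factor, in capitals, and those of Fos because it is the most studied gene of the list.
Zfp36, GRCm38.p6 chr7:28379229-28379478, minus strand: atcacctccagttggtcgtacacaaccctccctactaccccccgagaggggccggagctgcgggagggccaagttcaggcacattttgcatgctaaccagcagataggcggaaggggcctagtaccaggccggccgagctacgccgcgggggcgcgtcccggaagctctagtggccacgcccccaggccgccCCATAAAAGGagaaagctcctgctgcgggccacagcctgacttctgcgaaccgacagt
Fos, GRCm38.p6 chr12:85473640-85473889, plus strand: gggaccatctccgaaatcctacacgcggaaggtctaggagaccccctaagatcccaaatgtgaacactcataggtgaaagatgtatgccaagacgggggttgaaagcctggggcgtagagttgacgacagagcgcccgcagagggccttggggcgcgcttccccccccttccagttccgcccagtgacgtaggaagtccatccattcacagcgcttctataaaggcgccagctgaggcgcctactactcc
The CArG box begins 58 bases before the Zfp36 start site. Of the 25 immediate early and stress genes, 21 had an entry in the RefSeq promoter table. Motifs were sought over the window of each whole entry, of which only the 250 bases before the start site are printed above. A CArG box on either strand was in 1 of these windows, against 1.63% of 32851 promoters. The cyclic AMP element TGACGTCA was in 1 window (Dusp1; 1.79% of promoters), the AP-1 site TGANTCA in 1 (Mt2; 7.81%) and TATAAA in 3 (Fos, Junb and Nfkbia; 13.6%). The window of Fos held no CArG box and no TGACGTCA, which says nothing of the bases beyond it.

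Zfp36 stood at 59.2, 92.3 and 82.7 CPM in CLL 1, 2 and 3 and at 369.8, 301 and 248 CPM in SHAM 1, 2 and 3. Each CLL library was below each SHAM library. It fell by 2.02 ± 0.25 (SE) on the log2 scale (edgeR quasi-likelihood test, adjusted p = 0.026). The call was lost without CLL 1 (adjusted p = 0.098), CLL 2 (0.074), CLL 3 (0.088) or SHAM 2 (0.11), with log2 changes of -1.80 to -2.11 in all 6 such fits. It was also lost when all 4 cycle genes were required (adjusted p = 0.29, log2 change -2.01), where SHAM 3 had 4 cells and did not enter. In the same cells, 5 of 5 macrophage genes tested were lower in CLL at an unadjusted p under 0.05, with a median log2 change of -3.01 and none past adjustment. The summed macrophage and monocyte markers were high in SHAM 1 alone, at 2696, 45.4 and 153 CPM in SHAM 1, 2 and 3. In CLL 1, 2 and 3 they were at 157, 4.3 and 226 CPM, and the groups overlapped (p = 0.7, exact permutation test). Without the cycling myoblasts that held UMIs of 2 or more macrophage genes, SHAM 3 kept 2 cells and did not enter the fit. Between the other 5 libraries Zfp36 fell by 1.92 ± 0.25 (adjusted p = 0.034), 1 of 2 genes that passed then. With SHAM 3 left out and all other cells kept, its adjusted p was also 0.034.

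Other members of the list also had each CLL library below each SHAM library, without passing. Egr1, a zinc finger factor, was at 216, 281 and 281 CPM in the CLL and 737, 687 and 634 CPM in the SHAM libraries (log2 fold change -1.41 ± 0.21, adjusted p = 0.064). Fos, a subunit of the AP-1 factor, was at 349, 492 and 429.6 CPM against 969, 1629.9 and 1153 CPM (log2 fold change -1.56 ± 0.26, adjusted p = 0.064). Socs3, the feedback inhibitor of cytokine receptors that signal through STAT3, was at 53, 30.1 and 86.5 CPM against 188, 369 and 312 CPM (log2 fold change -2.23 ± 0.35, adjusted p = 0.064). The groups of all 3 genes did not overlap. Atf3, a stress-induced repressor, was at 53, 32.2 and 54.9 CPM against 103, 210.1 and 144 CPM (adjusted p = 0.12). Junb, a partner of Fos that was named after its values were seen, was at 438, 372 and 468 CPM against 820.4, 920.0 and 970.3 CPM (adjusted p = 0.12). Without SHAM 1, which leaves 7 and 6 cells in SHAM 2 and SHAM 3, Egr1, Fos, Socs3 and Atf3 passed with adjusted p of 0.0079, 0.0055, 0.0053 and 0.0095. With DESeq2 they also passed, at 1.4e-05, 1.2e-05, 1.6e-06 and 0.0029. Of the 22 list genes tested, 10 were lower and 2 higher at an unadjusted p under 0.05, and their median log2 change was -0.64, or -0.12 without SHAM 1.

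The list was then followed in the other classes of the same muscles. Its median log2 change was -0.91 in non-cycling myogenic barcodes, with 1 gene called higher and 12 lower of 24 (3.19 and 3.91% of all genes were called higher and lower). It was 0.34 in cycling fibroblasts, with 5 called higher and 0 lower of 25 (1.21 and 1.13% of all genes), and 12 higher and 2 lower at an unadjusted p under 0.05 (8.65 and 9.95% of all genes). In the fit of both dividing classes, with the library as a block, 9 of 9377 genes had a treatment difference that differed between the classes (0.096%), 5 upwards (0.0533%) and 4 downwards (0.0427%), and 2 of the latter were on the list. At an unadjusted p under 0.05, 8.9% of genes differed, 4.73% upwards and 4.17% downwards, against 0 and 14 of 25 list genes. Atf3 was at 223, 181 and 148 CPM in CLL and 120.3, 148 and 123 CPM in SHAM cycling fibroblasts, and the difference of its log2 changes was -1.87 ± 0.28 (adjusted p = 0.021). This call was lost without CLL 1, SHAM 2 or SHAM 3. Mt1, a metallothionein, was at 506, 414 and 415 CPM against 619, 1431 and 1644 CPM in cycling myoblasts and overlapped between the groups in cycling fibroblasts, with a difference of -1.39 ± 0.24 (adjusted p = 0.048), which passed in 1 of the 6 fits without a library. Mt1 was named after its values were seen. Zfp36 was at 354, 349.7 and 324 CPM against 596, 260.2 and 612 CPM in cycling fibroblasts, and its difference of -1.43 ± 0.32 did not pass (adjusted p = 0.18). Without single libraries, 2 to 100 genes differed between these classes, with 100 when SHAM 1 was left out.

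**Figure D3:**
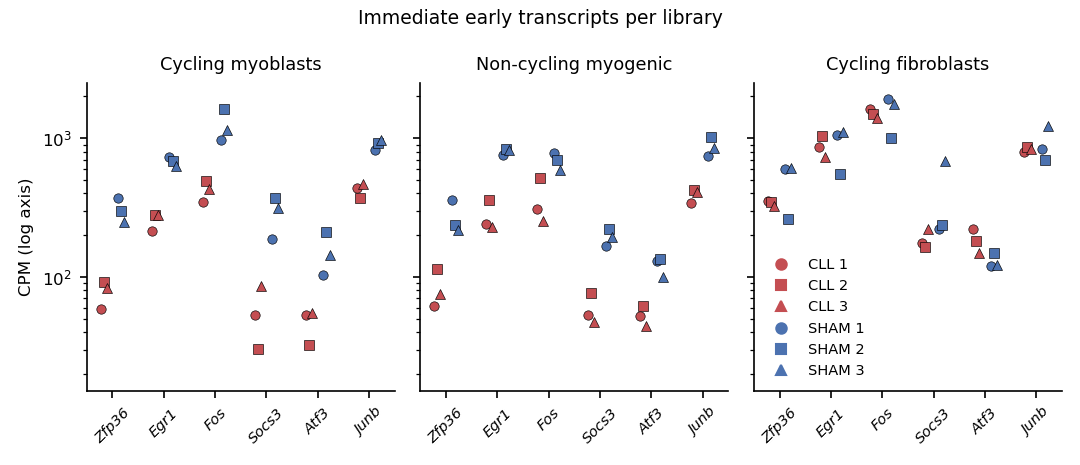
CPM on a log axis of 6 immediate early genes in cycling myoblasts, non-cycling myogenic barcodes and cycling fibroblasts; each point is 1 library. In cycling myoblasts the CLL points lie below the SHAM points for all 6 genes (Zfp36 59.2 to 92.3 against 248 to 369.8 CPM), and in cycling fibroblasts the Atf3 points of CLL (148 to 223 CPM) reach higher than those of SHAM (120.3 to 148 CPM).

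Cell cycle genes had lower levels in CLL than in SHAM cycling myoblasts, although none passed adjustment. Of 39 mitosis genes tested, 24 were lower and 0 higher at an unadjusted p under 0.05, with a median log2 change of -0.81. The whole list summed to 2948, 1922 and 2220 CPM in CLL 1, 2 and 3 and to 3618, 3629 and 5005 CPM in SHAM 1, 2 and 3, with no overlap (2364 ± 528 against 4084 ± 798 CPM, n = 3 each; p = 0.1, the smallest that this exact permutation test allows). Cyclin A was at 70.8, 30.1 and 51.7 CPM against 105, 153 and 168 CPM (log2 fold change -1.35 ± 0.31, adjusted p = 0.17). Ect2, the activator of the contractile ring, was at 24.5, 25.8 and 23 CPM against 50.3, 56.8 and 54.5 CPM (-1.14 ± 0.24, adjusted p = 0.17). Kif11, the spindle motor, was at 58.7, 40.8 and 49.1 CPM against 91.7, 96.5 and 139 CPM (-1.07 ± 0.25, adjusted p = 0.17). The groups of these 3 genes did not overlap, but cyclin B1 (Ccnb1) was at 65.4, 47.2 and 44 CPM against 75.9, 28.4 and 59.4 CPM.

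Replication genes had 14 lower and 0 higher of 31 tested at an unadjusted p under 0.05, with a median log2 change of -0.66. They summed to 2105, 1594 and 1764 CPM in the CLL and 2044, 3544 and 4079 CPM in the SHAM libraries, so SHAM 1 lay within the CLL range (1821 ± 260 against 3222 ± 1055 CPM; p = 0.2, exact permutation test). Pcna was at 194, 146 and 157 CPM against 203, 278 and 485 CPM (log2 fold change -0.92 ± 0.3, adjusted p = 0.23). Without SHAM 1, 6 replication and 4 mitosis genes passed, all lower, where 2.32% of all 5431 genes tested passed as lower. The SHAM side of that fit rests on 7 and 6 cells. Pcna and cyclin A were among these list genes (adjusted p = 0.032 and 0.031). The balance between the phases did not differ detectably: log2 of the S phase sum over the mitosis sum was -0.49, -0.27 and -0.33 in the CLL and -0.82, -0.03 and -0.30 in the SHAM libraries (-0.36 ± 0.11 against -0.38 ± 0.40; p = 0.9, exact permutation test).

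By its construction, the rule lets a deeper barcode pass at a lower level of the cycle genes. The rule's own genes had the same order, with Top2a at 321, 296 and 230.4 CPM in the CLL and 488, 505 and 832 CPM in the SHAM libraries and Mki67 at 201, 204 and 169.8 CPM against 309, 346 and 455 CPM, given as description. Among the cycling myoblasts that also passed the cycle rule in 4000 drawn UMIs (25, 7 and 28 in CLL, 58, 3 and 3 in SHAM), the mitosis list added up to 3912 ± 475 CPM over the CLL libraries and to 4880 ± 396 CPM over the SHAM libraries, without overlap (p = 0.1, exact permutation test), and CLL minus SHAM was -968 CPM there and -1720 CPM over all cycling myoblasts. Leaving out cells with UMIs of 2 or more macrophage genes, and with them SHAM 3, 12 of 38 mitosis genes were lower at an unadjusted p under 0.05 (5.61% of 5400 genes tested) and the median was -0.54. Leaving out SHAM 3 alone gave 18 of 40, where 426 of all 8040 genes tested were lower at that level, and a median of -0.58. In cycling fibroblasts, 8 of 40 mitosis genes fell (adjusted p under 0.05, against 1.13% of all genes) with a median of -0.63, and the S phase median was 0.17. The treatment differences of S phase genes in myoblasts minus those in fibroblasts had a median of -0.67, with 15 of 35 lower at an unadjusted p under 0.05 (4.17% of all genes) and none past adjustment.

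**Figure D4:**
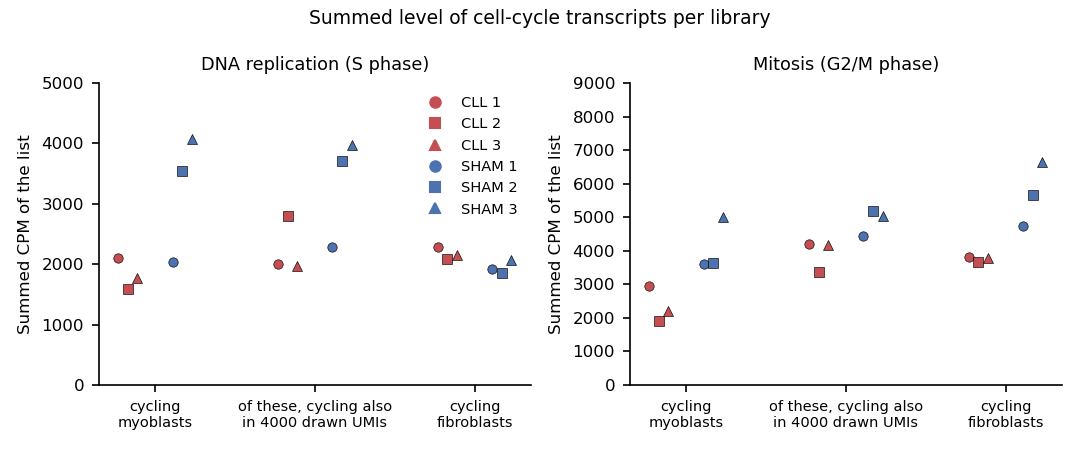
Summed CPM of the S phase and mitosis lists in cycling myoblasts, in those that also passed the cycle rule in 4000 drawn UMIs, and in cycling fibroblasts; each point is 1 library and the axes start at 0. The mitosis sums of CLL (1922 to 2948 CPM) lie below those of SHAM (3618 to 5005 CPM) in cycling myoblasts, and the S phase sums overlap.

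Regulators of the G1 phase had 6 lower and 0 higher of 22 tested at an unadjusted p under 0.05. They include the transcription repressor E2f8, at 20.5, 19.3 and 20.1 CPM in the CLL and 32.5, 62.5 and 69.3 CPM in the SHAM libraries, and the kinase Cdk2, at 22.7, 17.2 and 24.6 against 45.4, 34.1 and 49.5 CPM. They also include inhibitors: p27 (Cdkn1b) was at 29.4, 34.4 and 28.1 CPM against 43.4, 85.2 and 79.2 CPM, and p19 (Cdkn2d) at 65.4, 38.7 and 52.3 CPM against 90.7, 114 and 163 CPM. Their groups did not overlap and their adjusted p were 0.18, 0.2, 0.2 and 0.18. Cdkn1c had the opposite order of means with overlap, at 1259, 1080.2 and 1982 CPM against 1312, 670.1 and 822 CPM (log2 fold change 0.61 ± 0.31, adjusted p = 0.45). In cycling fibroblasts Cdkn1c was at 143, 151 and 172 CPM against 327, 199 and 321 CPM, and the difference between the classes was 1.57 ± 0.25 on the log2 scale (adjusted p = 0.025), a call that held without CLL 2 or SHAM 1 and was lost without any other library. Cdkn1a was at 109, 101 and 138 CPM against 178, 85.2 and 158 CPM and its groups overlapped.

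No gene of the myogenic state lists passed adjustment in dividing myoblasts. Pax7 was at 73, 139.6 and 77.2 CPM in the CLL and 104, 114 and 158 CPM in the SHAM libraries (log2 fold change -0.40 ± 0.30, adjusted p = 0.63). In non-cycling myogenic barcodes Pax7 fell by 0.99 ± 0.20 (adjusted p = 0.017), and the difference between the classes did not pass. Myog was at 282, 81.6 and 326 CPM against 271, 239 and 4.95 CPM (adjusted p = 0.88). Of 20 stem cell state genes tested, 3 were lower and 0 higher at an unadjusted p under 0.05. Chodl was at 10.7, 0 and 15.3 CPM against 72, 28.4 and 139 CPM (log2 fold change -2.78 ± 0.51, adjusted p = 0.1). Tenm4, a teneurin of the cell surface, was at 6.67, 2.15 and 6.06 CPM against 14.8, 28.4 and 19.8 CPM, and the chemokine receptor Cxcr4 at 29.4, 25.8 and 25.9 CPM against 43.4, 56.8 and 64.4 CPM (adjusted p = 0.19 and 0.2). Chodl and Tenm4 entered the test only through the SHAM libraries, so Tenm4 could be counted only as lower. The sums of SHAM 2 and SHAM 3 held 198174 and 210544 UMIs, so such levels rest on few UMIs. Without SHAM 1, which leaves 7 and 6 SHAM cells, Chodl passed (adjusted p = 0.0499, log2 fold change -2.85). Differentiation genes had 2 higher and 0 lower of 20 tested, with Ttn, the giant sarcomere spring, at 453, 593 and 483 CPM against 432, 244 and 233 CPM. Their median log2 change of 0.39 became -0.18 without CLL 3 and 1.10 without SHAM 1.

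Imprinted growth genes, which are expressed from 1 parental allele, had 3 lower and 0 higher of 17 tested at an unadjusted p under 0.05. Igf2, the growth factor that myoblasts make for themselves, was at 101, 118 and 96.1 CPM in the CLL and 172, 249.9 and 332 CPM in the SHAM libraries (log2 fold change -1.23 ± 0.26, adjusted p = 0.17). The non-coding RNA Meg3 was at 120.1, 64.4 and 114 CPM against 427, 159 and 272 CPM (-1.55 ± 0.34, adjusted p = 0.17). Both pairs of groups were without overlap, while H19, the non-coding neighbour of Igf2, was at 249, 288 and 219.6 CPM against 369, 233 and 238 CPM. Igf2 passed with DESeq2 and without SHAM 1 (adjusted p = 0.02 and 0.0069).

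The lists of glycolysis, hypoxia response, endoplasmic reticulum stress and cholesterol synthesis had positive median changes, without a gene passing, and that of oxidative phosphorylation did not. Glycolysis and lactate export had 9 higher and 0 lower of 16 tested at an unadjusted p under 0.05 and a median log2 change of 0.68. Tpi1, an enzyme of glycolysis, was at 333, 350.1 and 239 CPM in the CLL and 120.3, 125 and 153 CPM in the SHAM libraries (1.22 ± 0.23, adjusted p = 0.12). Ldha, which turns pyruvate into lactate, was at 532, 515 and 403 CPM against 270.2, 261 and 144 CPM (1.08 ± 0.26, adjusted p = 0.18), and the lactate exporter Slc16a3 at 63.6, 23.6 and 22.7 CPM against 12.8, 0 and 0 CPM. Each of these genes was without overlap, and Tpi1 and Ldha passed with DESeq2 (adjusted p = 0.0087 and 0.022). Slc16a3 had no UMI in SHAM 2 and SHAM 3, so it could enter the test only through the CLL libraries. Those 0 values rest on sums of 198174 and 210544 UMIs. The list was also higher in the neighbours: 10 of 18 genes tested rose in non-cycling myogenic barcodes (3.19% of all genes) and 11 of 19 in cycling fibroblasts (1.21% of all genes), with medians of 0.80 and 0.90.

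Hypoxia response genes had 5 higher and 0 lower of 12 tested. P4ha2, a collagen prolyl hydroxylase, was at 60.1, 36.5 and 35.4 CPM in the CLL and 16.8, 5.68 and 9.9 CPM in the SHAM libraries (1.69 ± 0.40, adjusted p = 0.17), and Egln1, the oxygen sensor that marks HIF-1 alpha for decay, at 106, 139.6 and 84.6 CPM against 57.2, 28.4 and 39.6 CPM (adjusted p = 0.18). P4ha2 could enter the test only through the CLL libraries. Genes of endoplasmic reticulum stress had 9 higher and 1 lower of 16 tested and a median of 0.67. Manf, a secreted factor of that organelle, was at 421, 468 and 493 CPM against 239, 261 and 218 CPM (0.94 ± 0.20, adjusted p = 0.17), and Pdia6, a disulfide isomerase, at 384, 322 and 385 CPM against 218, 204 and 228 CPM (0.74 ± 0.20, adjusted p = 0.18). Cholesterol synthesis had 3 higher and 0 lower of 12 tested, among them Fdps, farnesyl diphosphate synthase, at 64.5, 68.7 and 66.4 CPM against 19.7, 39.8 and 24.8 CPM (1.43 ± 0.29, adjusted p = 0.14). Oxidative phosphorylation had 0 genes on either side of 30 tested at that level, with a median of -0.05.

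Targets of transforming growth factor beta had 6 higher and 0 lower of 16 tested, with a median of 0.46 and 0.93 without SHAM 1. Tagln, an actin-binding protein, was at 793, 696 and 1056 CPM in the CLL and 402, 108 and 64.4 CPM in the SHAM libraries (2.01 ± 0.50, adjusted p = 0.18), and Pmepa1, a feedback inhibitor of the pathway, at 492, 477 and 569 CPM against 311, 256 and 252 CPM (0.89 ± 0.21, adjusted p = 0.17). Both passed without SHAM 1 (adjusted p = 0.0028 and 0.022). Fibroblasts also express such genes, and the summed fibroblast markers of the same cells were at 5903, 4942 and 7157 CPM in the CLL and 7198, 2465 and 2589 CPM in the SHAM libraries. The groups overlapped through SHAM 1 alone. Without it, where Tagln and Pmepa1 passed, the markers were also higher in each CLL library, and their part in these results was not tested. Interferon response genes had 1 higher and 3 lower of 11 tested: Iigp1, an interferon-induced GTPase, was at 7.56, 4.3 and 13.7 CPM against 42.4, 28.4 and 19.8 CPM, and the chemokine gene Cxcl10 at 81.9, 122 and 82.3 CPM against 159, 579 and 149 CPM (adjusted p = 0.17 and 0.2). Iigp1 entered the test only through the SHAM libraries, so it could be counted only as lower. In non-cycling myogenic barcodes 18 of 29 genes of that list fell (3.91% of all genes), and the difference between the classes did not pass for any of 30 genes (9 higher at an unadjusted p under 0.05, against 3.41% of all genes).

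**Figure D5:**
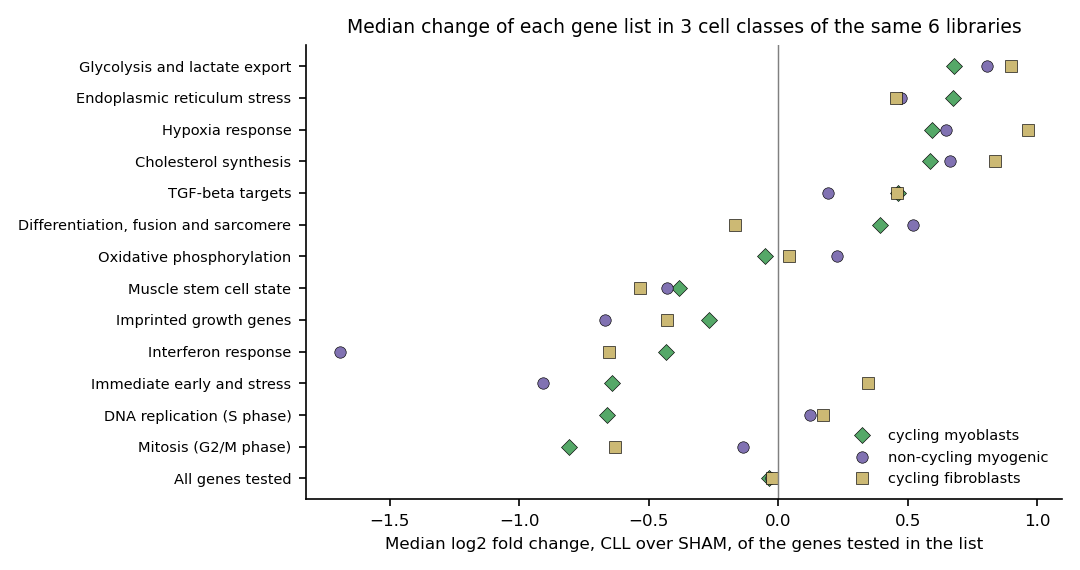
Median log2 fold change, CLL over SHAM, of the genes tested in each list in cycling myoblasts, non-cycling myogenic barcodes and cycling fibroblasts of the same 6 libraries. The S phase list lies at -0.66 in cycling myoblasts and at 0.12 and 0.17 in the other classes, and the glycolysis list lies between 0.68 and 0.90 in all 3. The medians do not cover the same genes in each class. In that order of classes, 31, 26 and 35 S phase genes and 39, 7 and 40 mitosis genes were tested.

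The non-cycling myogenic barcodes shared the mice and most of the selection with the dividing ones. Of 9424 genes, 1 had a treatment difference that differed between the classes (0.0106%), the transcript Gm42418, which overlaps a ribosomal RNA sequence. It was at 41511, 27852 and 14956 CPM in the CLL and 20330.3, 74800.4 and 57945 CPM in the SHAM cycling myoblasts, and its change differed by -0.83 ± 0.12 (adjusted p = 0.014). At an unadjusted p under 0.05, 7.45% of genes differed, 3.41% upwards and 4.04% downwards. Without single libraries, 0 to 38 genes passed, with 38 without SHAM 1 and 0 without SHAM 2. In the non-cycling class itself 668 of 9419 genes changed (7.09%), and in cycling fibroblasts 247 of 10570 (2.34%), from sums over 1391 and 828 barcodes.

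Col18a1 and Igfbp5 also had a treatment difference that differed from dividing fibroblasts. In all such differences, the fibroblast levels of SHAM 2 and SHAM 3 rest on 11 and 15 barcodes. Col18a1, a basement membrane collagen whose fragment endostatin limits vessel growth, was at 222, 146 and 209 CPM in the CLL and 185, 90.9 and 193 CPM in the SHAM cycling myoblasts, which overlapped. In cycling fibroblasts it was at 36.3, 25.9 and 24.7 CPM against 92, 129 and 149.8 CPM and fell by 2.06 ± 0.22 on the log2 scale (adjusted p = 0.0011). The difference of 2.36 ± 0.31 passed (adjusted p = 0.0071) and held in 6 of 6 fits without a library. Igfbp5, a secreted binding protein of insulin-like growth factors, was at 922, 739 and 1127 CPM against 792, 517 and 1693 CPM in cycling myoblasts and at 35.5, 21.6 and 53.7 CPM against 192, 613 and 357 CPM in cycling fibroblasts. Its difference of 3.39 ± 0.48 (adjusted p = 0.013) held in 5 of 6 such fits and was lost without CLL 1.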

How the data were processed

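Each of the 6 libraries came from 1 mouse (Chromium Single Cell 3′ v3.1), and the authors deposited UMI counts per gene and barcode. Per the submitters' processing notes, Cell Ranger 6.1.2 and the mm10 build were used. The members and gene lists were chosen with earlier results of these data known. Counts were summed per library over each class and tested with edgeR 4.0.16 (TMM, filterByExpr, quasi-likelihood test, Benjamini-Hochberg over all genes tested), with DESeq2 1.42.0 as an alternative. The planned minimum of 10 cycling myoblasts per library would have left 1 SHAM library and no test, so 5 was used, a choice made after cell numbers were seen. CPM are TMM-scaled, except for cells split by Myog, where only the total was used. Libraries with under 5 cycling myoblasts left a fit. Class differences used library, class and class by group as terms. Shares were compared by exact permutation of libraries, after drawing barcodes down to 2000 UMIs. No doublet caller was applied in the main analysis (Scrublet scores gave an alternative). Named genes were those past the threshold, up to 4 of smallest p per list, a fixed set that includes Pax7, Myog, Cdkn1a and Cdkn1c, and up to 5 per class comparison that passed. Examples in descriptions of the classes came from the lists. The fits were tested on simulated data. Promoters came from RefSeq tables (GRCm38.p6).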

Additional observations from a re-analysis of the deposited data

Results flagged for a closer look

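The treatment difference itself differed between cell classes for 10 genes, by the interaction test of edgeR. Against non-cycling myogenic barcodes, the log2 change of Gm42418 in cycling myoblasts was lower by -0.83 ± 0.12 (SE, adjusted p = 0.014), and the call was lost without SHAM 2.

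Against cycling fibroblasts the log2 change in cycling myoblasts was higher for Rgs5 by 6.59, for Igfbp5 by 3.39, for Col18a1 by 2.36, for Cdkn1c by 1.57 and for Nbl1 by 1.37. It was lower for Hist2h2bb at -2.30, for Hist1h3b at -2.12, for Atf3 at -1.87 and for Mt1 at -1.39. With each library left out in turn, Col18a1 passed in 6 of 6 fits, Rgs5 and Igfbp5 in 5, Atf3 in 3, Hist2h2bb and Cdkn1c in 2, and Hist1h3b, Mt1 and Nbl1 in 1.

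Rgs5, a marker of mural cells, was at 412 CPM in the cycling fibroblasts of SHAM 1 and at 1.15 to 5.71 CPM in those of the other 5 libraries, and its call was lost without SHAM 1. Hist1h3b was at 480.2 CPM in the cycling myoblasts of SHAM 3 and at 9.89 to 62.5 CPM in those of the other libraries. No group had the 4 libraries that a test for a single outlying library needs.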

How the results depend on the processing

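With at least 10 or 20 cycling myoblasts per library, as first planned, SHAM kept 1 library and no test could be made. The count of genes past the threshold in cycling myoblasts was 1, and it was 38 with DESeq2, 427 with no filter on low counts, 7 with the replicate number as a block, 0 with all 4 cycle genes required (without SHAM 3, at 4 cells), 6 with collagens under 1% of UMIs, 5 without the highest Scrublet scores, 2 without members holding macrophage UMIs (without SHAM 3, at 2 cells), and 0 to 196 with 1 library left out. The count of genes that differed from non-cycling barcodes was 1, against 8 with DESeq2, 76 with no filter, 32 with the replicate block and 0 to 38 with 1 library left out. For the difference from cycling fibroblasts the 9 became 19, 132, 27 and 2 to 100. The block took non-cycling myogenic barcodes from 668 to 267 and cycling fibroblasts from 247 to 95. No sign that replicate numbers pair the mice was seen: same-numbered libraries correlated at -0.05, 0.02 and -0.13 in their deviations from the group means. So few libraries cannot show that pairing was absent, and the labels do not state it.

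The undrawn share among kept barcodes, CLL minus SHAM, lay between 0.521 and 1.27 percentage points with 1 library left out. The drawn cycling share of myogenic barcodes differed by 0.188 percentage points, by 10.4 when not drawn down, by 1.90 and 2.35 with the whole rule on 2000 and 4000 drawn UMIs, and by -1.38 to 1.40 with 1 library left out. The Myog share differed by -1.37 and by 5.85 at 1000 UMIs, 10.0 at 4000, 13.3 undrawn, 4.81 with at least 1000 genes and at most 10% mitochondrial UMIs, 6.25 without high Scrublet scores and -9.43 to 4.85 with 1 library left out. The Pax7 share differed by 3.30 and by -13.9 at 4000 UMIs, -5.82 with the stricter quality rule, -10.4 without high Scrublet scores and -2.78 to 7.11 with 1 library left out. The log2 S phase to mitosis ratio differed by 0.02, by -0.21 among cells cycling in 4000 drawn UMIs and by -0.20 to 0.20 with 1 library left out. The causes were not tested, apart from fewer cells or genes entering.

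Over 79 named genes and 689 values with DESeq2, upper quartile scaling, the replicate block or 1 library left out, 635 kept direction and side of the threshold, 41 newly passed (26 of them without SHAM 1), 4 lost the call (Zfp36) and 9 changed direction. Those were Myog (-0.10 to 1.06 with 1 library left out), Mymx (-0.50 to 1.72), H19 (-0.27 to 0.12), Met (-0.20 to 0.22), Ccnb1 (-0.39 to 0.27) and Igfbp5 (-0.38 to 0.52, and 0.040 with the replicate block). SHAM 3 and SHAM 2 held 6 and 7 cycling myoblasts, which limits the depth of their sums.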
